A study of Rattus norvegicus with 12 samples.

Results

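The genes followed here are 6 steroid-metabolising enzymes of rat liver, Hsd3b5, Hsd3b2, Hsd11b1, Hsd17b2, Dhrs7l1 and Srd5a1. They were found by the gene names Hsd3b, Hsd3b2, Hsd11b1, Hsd17b2, Dhrs7 and Srd5a1 on non-control probes, where Hsd3b is the probe of Hsd3b5 and Dhrs7 that of Dhrs7l1. The 6 genes had 8 probes among the 41012 distinct probes of the array, which name 15502 genes in all. No probe carries the name Hsd3b2, and the probe that the files call Hsd3b1 was taken for it through its accession. Hsd11b1 and Srd5a1 each had a second, dimmer probe.

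Livers came from Fischer 344 rats aged 12 weeks, and their RNA was hybridised in pairs to 12 Agilent arrays, with 2 dye-swapped arrays for each of 6 comparisons. Hypophysectomised males that had received growth hormone (GH) were set against hypophysectomised males without it, after 1 injection (1 pool of 4 livers taken 30, 60 or 90 min later) or after 2 injections given 3 or 4 h apart (1 pool of 5 livers). Hypophysectomised (hypox) males were set against untreated males and against hypox females, hypox females against untreated females, and untreated males against untreated females, in pools of 3 to 4 livers that differed between the arrays of a dye swap. Both arrays of a GH comparison held the same GH pool, so that the spread there leaves out differences between GH-treated animals. The labels do not say which untreated or hypox pool lay on which array.

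Hydroxysteroid dehydrogenases add or remove hydrogen at fixed positions of the steroid ring and so switch hormones between active and inactive forms. Hsd3b2 oxidises early precursors on the way to progesterone, and Hsd3b5 is a liver member of the same family that reduces the keto group at that position. Hsd11b1 regenerates corticosterone from its inactive keto form, Hsd17b2 oxidises estradiol and testosterone to less active steroids, and Srd5a1 reduces testosterone to the more potent dihydrotestosterone. Dhrs7l1 is a relative of the short-chain dehydrogenase Dhrs7. Removing the pituitary ends GH secretion, which in male rats comes in pulses and in female rats is nearly continuous, and it also removes the drive to the gonads, adrenals and thyroid.

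The probes lie, by the coordinates in the files, whose genome build they do not state, on chromosome 2 for Hsd3b5 (193213150 to 193213209) and Hsd3b2 (193300706 to 193300765), both on the minus strand. Those of Hsd11b1 lie on chromosome 13, minus strand, at 109252982 to 109253041 and, for the second probe, 109252728 to 109252787. The Hsd17b2 probe lies on chromosome 19, minus strand (47734509 to 47734568), and the Dhrs7l1 probe on chromosome 6, minus strand (95009533 to 95009592). For Srd5a1 the files give chromosome 17, plus strand, at 3878645 to 3878704 and 3854451 to 3854510, whereas RefSeq's GRCr8 places that gene on chromosome 1, so coordinates of the files and of GRCr8 are kept apart here. In the gene order of GRCr8, Hsd3b5 and Hsd3b2 share a cluster on chromosome 2 with Hsd3b3 and Hsd3b1, and Dhrs7l1 sits beside Dhrs7 on chromosome 6. The exon or untranslated region under each probe was not determined here.

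RefSeq's promoter table for GRCr8 held 3 of the 6 genes, and the 250 bases before their starts are shown because Srd5a1 and Dhrs7l1 moved farthest of the 6 after 1 GH injection, in opposite directions, and Hsd3b2 is the only other gene in the table. Srd5a1, on the plus strand at chr1:35514664-35514913, Hsd3b2, on the minus strand at chr2:188794070-188794319, and Dhrs7l1, on the minus strand at chr6:97047900-97048149, are printed from 5′ to 3′ with GC boxes (GGGCGG on either strand) in capitals.
Srd5a1: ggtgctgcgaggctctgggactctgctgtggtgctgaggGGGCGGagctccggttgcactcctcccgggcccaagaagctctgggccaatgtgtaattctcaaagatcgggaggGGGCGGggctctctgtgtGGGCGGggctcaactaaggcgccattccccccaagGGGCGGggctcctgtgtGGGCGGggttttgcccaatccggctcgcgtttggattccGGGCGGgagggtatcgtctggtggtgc
Hsd3b2: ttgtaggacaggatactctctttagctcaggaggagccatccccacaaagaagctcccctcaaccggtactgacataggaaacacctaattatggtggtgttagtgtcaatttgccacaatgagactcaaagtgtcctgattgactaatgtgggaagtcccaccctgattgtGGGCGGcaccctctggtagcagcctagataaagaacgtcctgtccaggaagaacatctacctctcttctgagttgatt
Dhrs7l1: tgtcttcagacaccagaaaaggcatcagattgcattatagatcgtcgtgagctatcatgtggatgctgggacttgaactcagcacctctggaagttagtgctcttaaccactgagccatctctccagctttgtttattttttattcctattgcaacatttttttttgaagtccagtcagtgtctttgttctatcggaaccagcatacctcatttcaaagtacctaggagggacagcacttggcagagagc
The Srd5a1 window held 6 GC boxes, the Hsd3b2 window 1 and the Dhrs7l1 window 0, a motif picked after these sequences were read and present in 30.5% of 33469 rat windows of the same length. Also searched on both strands were the STAT5-type motif TTCNNNGAA, found in 7.67% of those windows, the CUX core ATCGAT in 0.75% and the TATA box TATAAA in 12.9%. None of these 3 motifs was present in the 3 windows shown. A match or its absence describes the letters of the window only.

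All 6 genes were well above background in all 24 channels (2 colours on 12 arrays), and no spot of any array was saturated. Over all probes, 58.4% to 71.1% were well above background in each colour of an array. Precision is limited by having 2 arrays a comparison. Ratios are log2 of the first RNA named over the second, fitted with limma and given ± SE (n = 2 arrays a comparison). The SE uses 1 spread for each probe over all 12 arrays, so it does not follow the 2 arrays of a comparison. Values that combine comparisons rest on 8 arrays, or on 4 for 2 against 1 GH. A gene was called where the Benjamini-Hochberg adjusted p over all tested probes was under 0.05. Values of single arrays still hold the dye effect, which the fit removes and which reached a log2 red over green of 0.42 ± 0.04 for Hsd11b1. Levels are log2 intensities of one channel and are compared only within a probe. In whole liver, fewer cells of a type and less RNA per cell cannot be told apart. All 6 hepatocyte markers listed were above background in every channel. Of 9 adrenal and gonadal markers, Cyp17a1, Hsd3b1 and Star were above background in all channels and Cyp11a1, Cyp19a1 and Mc2r in none.

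Hsd3b5 had its highest median level in untreated males (16.26), followed by hypox males (15.70), hypox males after 2 GH (15.06), hypox males after 1 GH (14.53), hypox females (14.00) and untreated females (9.91). Hsd3b2 kept the same order, with medians of 14.20, 13.80, 13.23, 12.85, 12.30 and 9.62. For both genes the ranges of hypox males after 1 GH and hypox females overlapped, and every other pair of neighbours in the order was apart. Dhrs7l1 was also highest in untreated males (16.01) and lowest in untreated females (9.76). There hypox females (11.56) overlapped hypox males after 1 GH (11.14), which overlapped untreated females. Hsd11b1 differed little among 5 of the RNAs, whose medians lay between 16.67 and 17.41 with overlapping ranges, and untreated females stood apart at 13.82. For Hsd17b2 the 4 hypox RNAs had medians of 15.82 to 16.44, clear of untreated females (14.40) and untreated males (13.88), which overlapped each other. Srd5a1 was highest in untreated females (17.19), where Hsd3b5 was lowest. Next came hypox males after 1 GH (15.37), untreated males (15.06), hypox males after 2 GH (14.29), hypox females (13.56) and hypox males (12.95). Only untreated males and hypox males after 2 GH overlapped in that order, though hypox females lay only 0.0016 and 0.0095 from their neighbours.

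**Figure D1:**
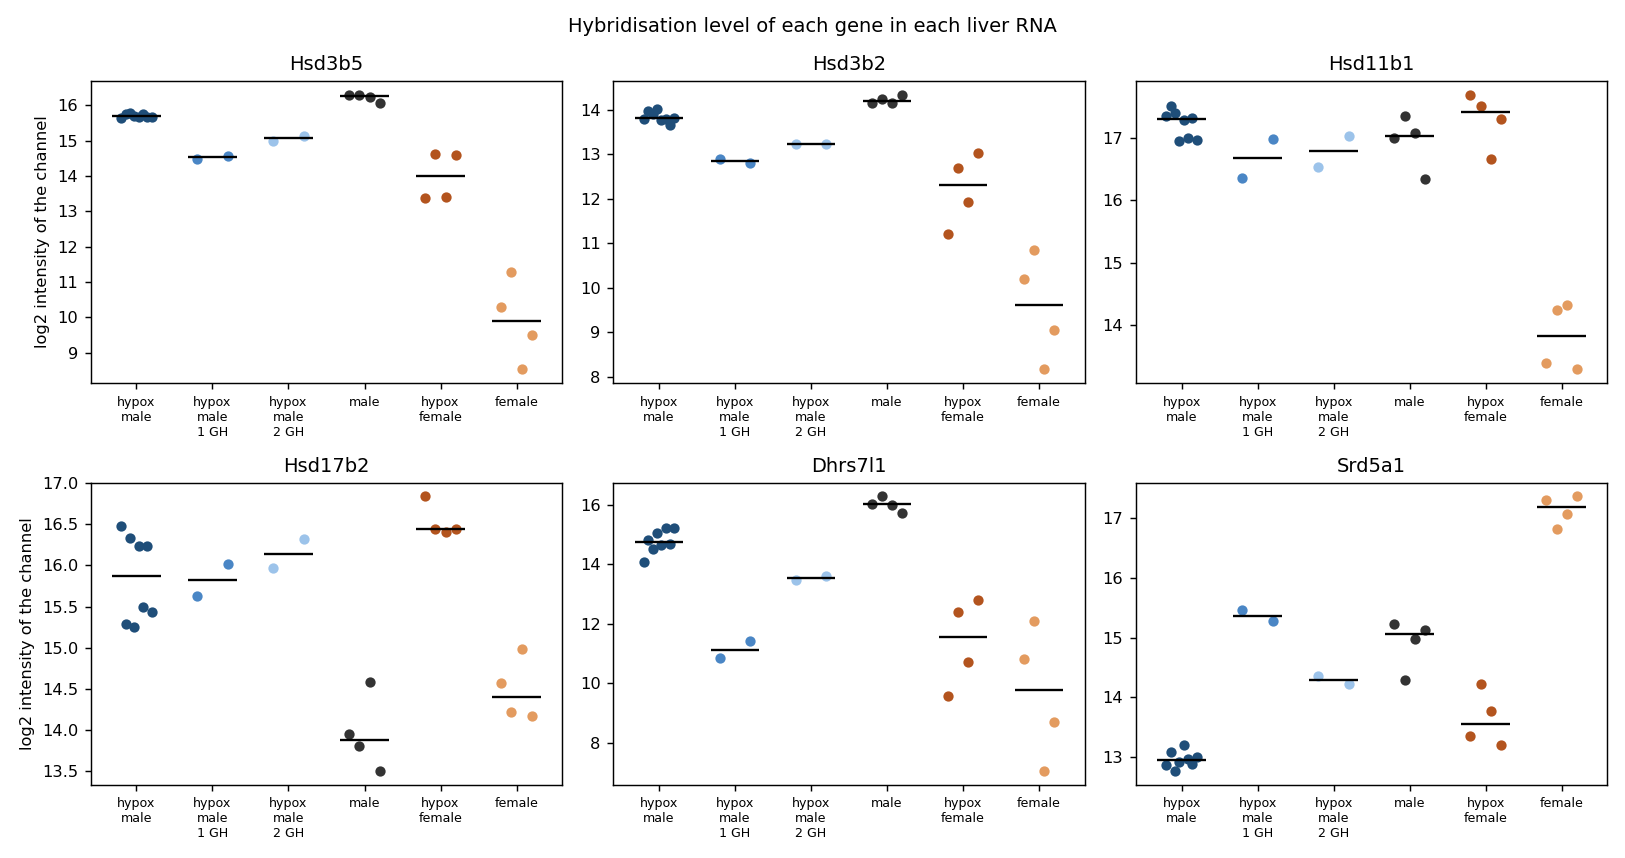
Log2 channel intensity (vertical axis, a scale of its own for each gene) of the 6 genes in the 6 liver RNAs; each point is 1 channel of 1 array (8 for hypox males, 4 for untreated males, hypox females and untreated females, 2 for each GH pool) and each bar the median. Untreated females are lowest for Hsd3b5 (median 9.91), Hsd3b2 (9.62), Hsd11b1 (13.82) and Dhrs7l1 (9.76) and highest for Srd5a1 (17.19).

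The comparison of untreated males with untreated females asked how the liver differs between the sexes. Of the 6 genes, 4 were higher in males (Hsd3b5, Hsd3b2, Hsd11b1 and Dhrs7l1), Srd5a1 was lower in males, and Hsd17b2 was not called, where 15.5% of 25714 tested probes were called in all, 8.07% higher and 7.42% lower. Hsd3b5 read 16.29 and 16.30 in males, against 10.30 and 11.27 in females, log2 ratios of 5.99 and 5.02 on the single arrays. Males were far above females on both arrays, and the fitted log2 ratio was 5.51 ± 0.20, a 45.4-fold difference (adjusted p = 1.15e-06). Only 10 of the 25714 probes were at least that much higher in males. Dhrs7l1 read 16.02 and 16.28 in males, against 10.80 and 12.09 in females, a fitted log2 ratio of 4.70 ± 0.30 (26.1-fold, adjusted p = 2.77e-05).

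Hsd3b2 followed with 14.16 and 14.23 in males, against 10.20 and 10.84 in females (3.67 ± 0.19, 12.8-fold). Hsd11b1 read 17.00 and 17.34 in males, against 13.39 and 14.25 in females (3.35 ± 0.09, 10.2-fold), and its second probe gave 3.59 ± 0.15. No male channel of these genes overlapped a female one. Srd5a1, the reductase of testosterone, read 15.22 and 14.30 in males, against 17.31 and 16.82 in females, so that males had 20.2% of the female signal (-2.30 ± 0.19, adjusted p = 0.000118). With arrays centred on their median in place of loess, this call was lost (adjusted p = 0.0739), while the second probe (-2.04 ± 0.11) kept its own. Hsd17b2 read 13.96 and 13.80 in males, against 14.57 and 14.22 in females, and its log2 ratio of -0.52 ± 0.25 was not called (adjusted p = 0.231), although both arrays were below 0.

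**Figure D2:**
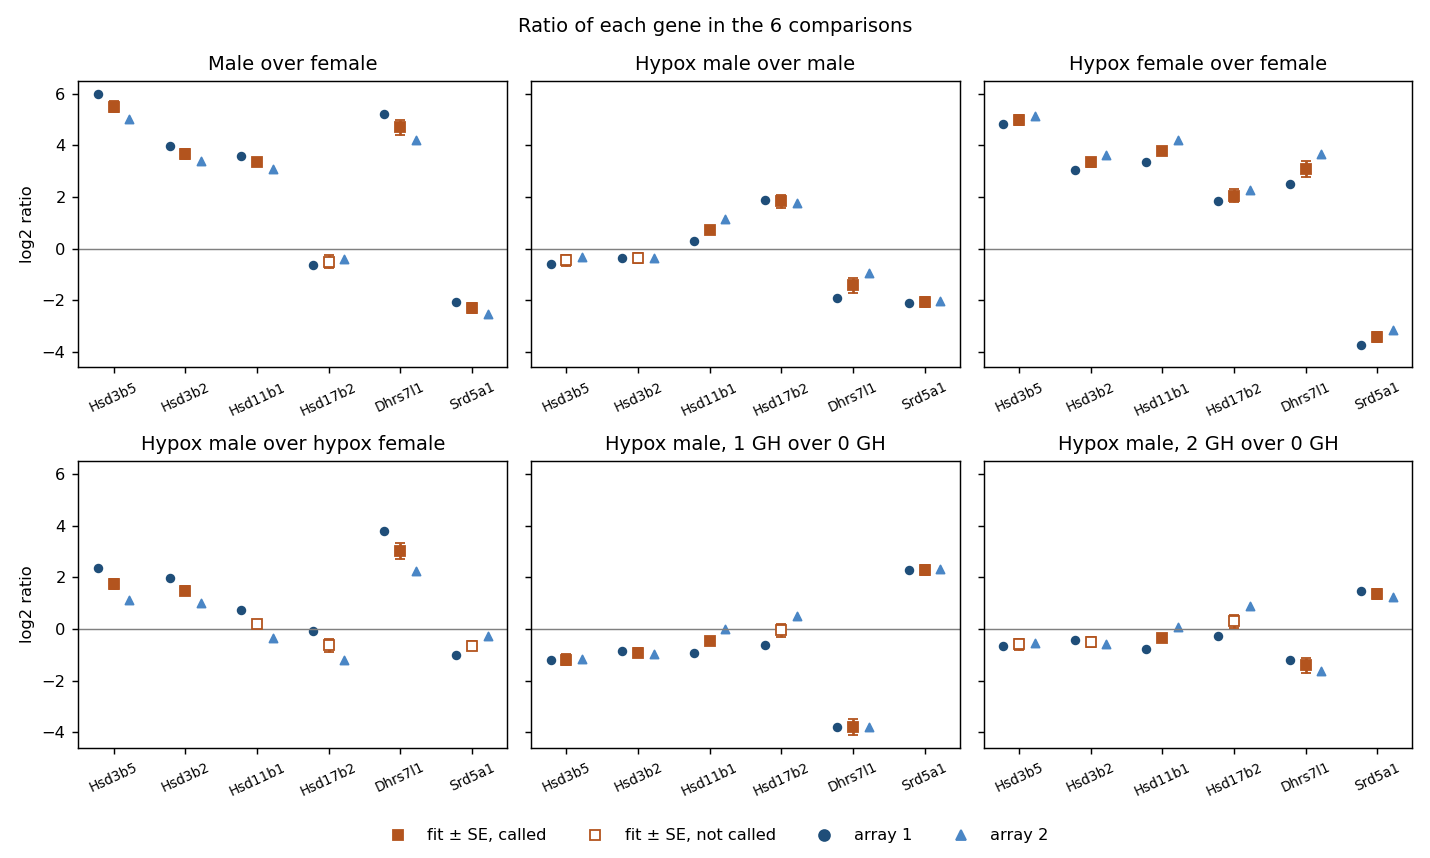
Log2 ratios (vertical axis) of the 6 genes in the 6 comparisons, 1 panel each; squares are fits ± SE over 2 arrays, filled where called, with array 1 (circle) to the left and array 2 (triangle) to the right of each. The 4 genes high in males are also far above 0 in hypox females over untreated females, and after 1 GH Dhrs7l1 (-3.80) and Srd5a1 (2.28) lie farthest from 0.

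Hypophysectomy of females, set against untreated females, raised 5 of the 6 genes and lowered Srd5a1, where 36.3% of 24320 probes were called in all, 17.9% higher and 18.5% lower. Hsd3b5 read 13.37 and 14.63 in hypox females, against 8.54 and 9.51 in untreated females, a fitted log2 ratio of 4.98 ± 0.20 (31.5-fold, adjusted p = 2.15e-06). That was the fourth-largest increase among the probes tested. Hsd11b1 read 17.69 and 17.51 in hypox females, against 14.31 and 13.29 in untreated females (3.79 ± 0.09, 13.9-fold). Hsd3b2 read 11.21 and 12.68 in hypox females, against 8.17 and 9.04 in untreated females (3.34 ± 0.19, 10.1-fold). For all of these the hypox and untreated channels were apart.

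Dhrs7l1 read 9.56 and 12.39 in hypox females, against 7.06 and 8.72 in untreated females (3.09 ± 0.30, 8.51-fold, adjusted p = 0.000181). Hsd17b2, the oxidising enzyme of estradiol and testosterone, read 16.83 and 16.44 in hypox females, against 14.99 and 14.17 in untreated females (2.06 ± 0.25, 4.16-fold). Both genes were higher in hypox females on each array. Srd5a1 read 13.35 and 14.23 in hypox females, against 17.07 and 17.36 in untreated females, and fell to 9.30% of the untreated signal (-3.43 ± 0.19, adjusted p = 1.16e-05). The second probe of Srd5a1 gave -2.75 ± 0.11, and that of Hsd11b1 3.88 ± 0.15. All 6 calls were kept with median centring in place of loess.

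In hypox males, set against untreated males, 2 genes were higher (Hsd17b2 and Hsd11b1), 2 were lower (Srd5a1 and Dhrs7l1) and 2 were not called (Hsd3b5 and Hsd3b2), where 37.5% of 25984 probes were called in all, 19% higher and 18.5% lower. Hsd17b2 read 16.48 and 15.29 in hypox males, against 14.59 and 13.51 in untreated males (1.83 ± 0.25, 3.57-fold, adjusted p = 0.000981). Srd5a1 read 12.87 and 13.09 in hypox males, against 14.98 and 15.14 in untreated males, a fall to 23.7% (-2.08 ± 0.19, adjusted p = 0.00014). Both genes moved alike on the 2 arrays. Dhrs7l1 read 14.09 and 14.80 in hypox males, against 16.00 and 15.73 in untreated males (-1.42 ± 0.30, adjusted p = 0.00715). Without replicate 1 its ratio was -1.27 and not called (adjusted p = 0.0754).

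Hsd11b1, which regenerates corticosterone, read 17.35 and 17.50 in hypox males, against 17.07 and 16.34 in untreated males, with log2 ratios of 0.28 and 1.16 on the single arrays. The fitted 0.72 ± 0.09 was called (adjusted p = 0.000513), and without a dye term it was not (adjusted p = 0.168). Its second probe gave the same 0.72 ± 0.15, not called without replicate 1 (adjusted p = 0.0501). Hsd3b5 (-0.46 ± 0.20, adjusted p = 0.111) and Hsd3b2 (-0.36 ± 0.19, adjusted p = 0.165) were below 0 on both arrays without being called. With median centring, of the 4 calls that of Hsd17b2 was kept and those of Srd5a1 (adjusted p = 0.145), Hsd11b1 (0.357) and Dhrs7l1 (0.426) were not.

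The change on hypophysectomy in males minus that in females was tested directly, as the mean of 2 routes around the loop of the 4 RNAs. It was called for 5 of the 6 genes, where 13.5% of 23859 probes were called in all, 6.48% higher and 7.01% lower. The male change was below the female change for 4 genes, with log2 differences of -4.60 ± 0.20 for Hsd3b5, -3.11 ± 0.09 for Hsd11b1, -3.097 ± 0.30 for Dhrs7l1 and -2.95 ± 0.19 for Hsd3b2. For Srd5a1, which fell in both sexes, it was 1.504 ± 0.19 (adjusted p = 0.00165), a smaller fall in males. Hsd17b2, which rose in both sexes, gave -0.17 ± 0.25 (adjusted p = 0.731), a value that leaves room for a difference either way. With median centring the calls of Dhrs7l1 (adjusted p = 0.115) and Srd5a1 (0.486) were lost.

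Both routes were below 0 for the 4 genes with a negative difference, but they differed in size for 3 of them. For Dhrs7l1 the direct changes gave -4.51 and the arrays between the sexes -1.68, for Hsd3b5 they gave -5.43 and -3.76, and for Hsd3b2 -3.70 and -2.19. The sum around the loop, 0 for ratios that fit together, was -2.82 for Dhrs7l1, -1.67 for Hsd3b5 and -1.52 for Hsd3b2. Its size had a median of 0.06 over all 23859 probes, and only 3 probes were at least as far from 0 as Dhrs7l1, 20 as Hsd3b5 and 21 as Hsd3b2. Hsd11b1 (0.08) and Hsd17b2 (-0.11) closed the loop within the 95th percentile of all probes (0.19), and Srd5a1 (-0.31) did not.

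The levels of these genes also varied between arrays of the same RNA. In untreated females Dhrs7l1 read 10.80 and 12.09 beside males but 7.06 and 8.72 beside hypox females, and Hsd3b5 read 10.30 and 11.27 beside males but 8.54 and 9.51 beside hypox females. In hypox females Hsd3b5 read 13.37 and 13.41 on the arrays numbered 1 and 14.63 and 14.60 on those numbered 2. Dhrs7l1 read 9.56 and 10.73 in hypox females on the arrays numbered 1 and 12.39 and 12.81 on those numbered 2. In hypox males Dhrs7l1 read 14.09 to 14.67 on the 4 arrays numbered 1 and 14.80 to 15.22 on the 4 numbered 2, and in untreated males it lay between 15.73 and 16.28. The gap in untreated females lay between arrays of the same number and slide. On the arrays numbered 1 the female RNA was green beside males and red beside hypox females, and on those numbered 2 the reverse. The levels beside males were the higher ones on both, and the cause of the gap was not tested. In hypox females, number, slide and dye coincide and cannot be told apart, and which pool lay on each array is not given.

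**Figure D3:**
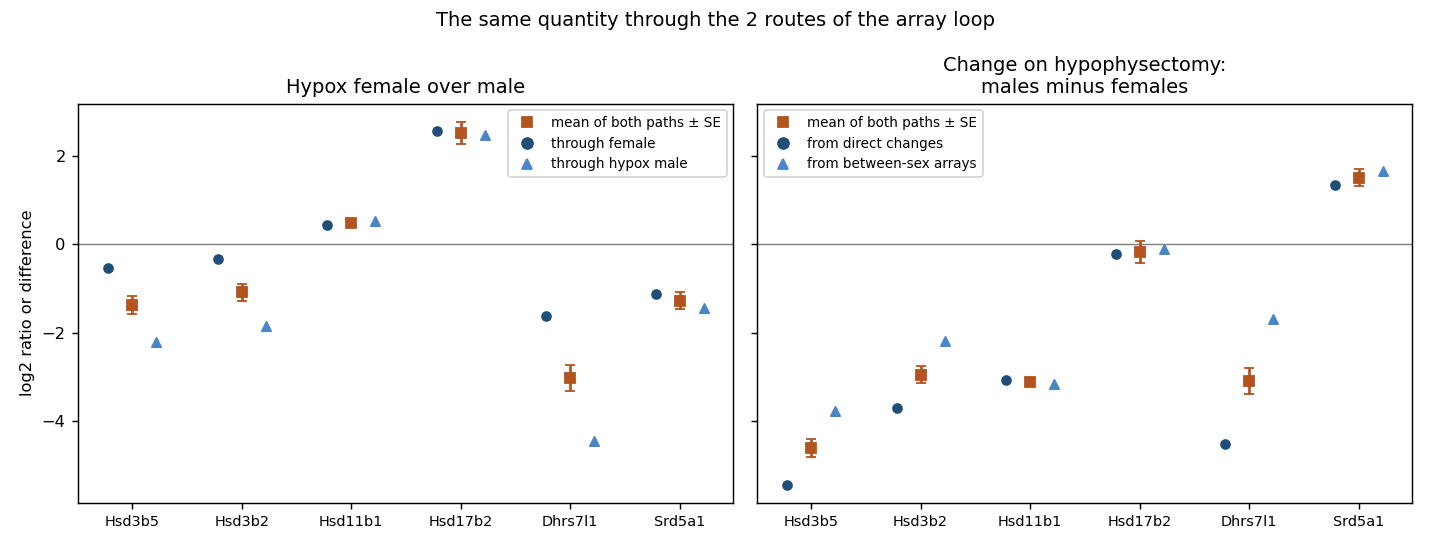
Log2 ratio of hypox females over untreated males (left) and log2 difference between the male and the female change on hypophysectomy (right) for the 6 genes; squares are means of the 2 routes ± SE, and circles and triangles the single routes. The routes lie apart for Dhrs7l1 (-1.61 and -4.44 on the left), Hsd3b5 (-0.53 and -2.20) and Hsd3b2 (-0.33 and -1.84), and close together for Hsd11b1 and Hsd17b2.

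Whether females without a pituitary reached the male level was read from hypox females over untreated males, which shared no array, as the mean of the routes through untreated females and through hypox males. All 6 genes were called, where 42.9% of 23859 probes were called in all, 22% higher and 20.9% lower. Dhrs7l1 (-3.03 ± 0.30), Hsd3b5 (-1.36 ± 0.20), Srd5a1 (-1.28 ± 0.19) and Hsd3b2 (-1.09 ± 0.19) were lower in hypox females. The routes through untreated females and through hypox males gave -1.61 and -4.44 for Dhrs7l1, -0.53 and -2.20 for Hsd3b5 and -0.33 and -1.84 for Hsd3b2, so the size of these differences is poorly fixed and the SE does not cover the gap. For Srd5a1 the routes gave -1.12 and -1.43. Hsd17b2 was 5.73-fold higher in hypox females (2.52 ± 0.25, adjusted p = 0.000193). Hsd11b1 was 1.40-fold higher (0.49 ± 0.09, adjusted p = 0.00293), not called without a dye term (adjusted p = 0.331), and its second probe was not called (0.32 ± 0.15, adjusted p = 0.115). With median centring only the call of Hsd17b2 was kept, and the others had adjusted p of 0.0756 (Dhrs7l1) to 0.388 (Hsd3b2).

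Between hypox males and hypox females, 3 of the 6 genes were higher in males, where only 0.949% of 26038 probes were called in all, 0.53% higher and 0.419% lower. Dhrs7l1 read 14.52 and 15.06 in hypox males, against 10.73 and 12.81 in hypox females (3.02 ± 0.30, 8.1-fold, adjusted p = 0.00456). Hsd3b5 read 15.79 and 15.71 in hypox males, against 13.41 and 14.60 in hypox females (1.75 ± 0.20, 3.35-fold, adjusted p = 0.0106). Hsd3b2 read 13.90 and 14.02 in hypox males, against 11.93 and 13.02 in hypox females (1.49 ± 0.19, 2.8-fold, adjusted p = 0.0144). All 3 genes were higher in hypox males on both arrays, and only 4 probes in all were at least as far above 0 as Dhrs7l1.

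Those 3 calls rested on the array numbered 1: without replicate 1 the log2 ratios were 2.52, 1.28 and 1.09 for Dhrs7l1, Hsd3b5 and Hsd3b2, with adjusted p of 0.137, 0.154 and 0.212. With median centring all 3 had an adjusted p of 0.999. From the deposited processed signals the Hsd3b5 ratio was 1.74 with an adjusted p of 0.0626. Hsd11b1 (0.19 ± 0.09, adjusted p = 0.376), Hsd17b2 (-0.63 ± 0.25, adjusted p = 0.33) and Srd5a1 (-0.65 ± 0.19, adjusted p = 0.189) were not called. Srd5a1 was lower in hypox males on both arrays, by log2 ratios of -1.01 and -0.28.

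GH was given to hypox males to ask how the liver answers the hormone. After 1 injection, 4 of the 6 genes were lower and Srd5a1 was higher than in hypox males without GH, where 14.3% of 26359 probes were called in all, 7.49% higher and 6.79% lower. Dhrs7l1 read 10.85 and 11.43 after 1 GH, against 14.66 and 15.21 without GH, a fall to 7.19% (-3.80 ± 0.30, adjusted p = 0.000241). No other probe of the 26359 tested fell as far. Srd5a1 read 15.46 and 15.28 after 1 GH, against 13.20 and 12.97 without GH (2.28 ± 0.19, 4.87-fold, adjusted p = 0.000308), and its second probe gave 1.82 ± 0.11. Before the dye effect was removed, the 2 arrays differed by less than 0.1 for Dhrs7l1 (-3.81 and -3.78) and Srd5a1 (2.26 and 2.30). That effect was a log2 red over green of 0.36 ± 0.12 for Dhrs7l1 and 0.01 ± 0.08 for Srd5a1. Its removal sets the Dhrs7l1 arrays farther apart, and across the alternative settings the fitted Dhrs7l1 ratio lay between -4.21 and -3.38. Both arrays held the same GH pool.

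Hsd3b5 fell to 43.9% after 1 GH, with 14.47 and 14.58 after GH, against 15.68 and 15.75 without it (-1.19 ± 0.20, adjusted p = 0.00745). Hsd3b2 fell to 52.8%, with 12.90 and 12.81 after GH, against 13.77 and 13.78 without it (-0.92 ± 0.19, adjusted p = 0.0148). Both were lower on each array, but neither was called with 1 array left out, with adjusted p of 0.0579 and 0.177 for Hsd3b5 and 0.0827 and 0.262 for Hsd3b2. Hsd11b1 had log2 ratios of -0.93 and -0.02 on the single arrays and a fitted -0.48 ± 0.09 (adjusted p = 0.00956). Without a dye term its adjusted p was 0.501, and with either array left out 0.173 or 0.125. Its second probe (-0.42 ± 0.15, adjusted p = 0.0987) was not called. Hsd17b2 was not called (-0.05 ± 0.25, adjusted p = 0.927), with -0.61 on one array and 0.51 on the other. With median centring none of the 5 calls was kept, though the ratios of Dhrs7l1 (-3.85, adjusted p = 0.133) and Srd5a1 (2.18, adjusted p = 0.375) stayed close to those above.

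After 2 injections, Srd5a1 was higher, Dhrs7l1 and Hsd11b1 were lower and 3 genes were not called, where 30.8% of 28438 probes were called in all, 15% higher and 15.8% lower. Srd5a1 read 14.35 and 14.23 after 2 GH, against 12.88 and 13.01 without GH (1.35 ± 0.19, 2.54-fold, adjusted p = 0.00102). Dhrs7l1 read 13.47 and 13.59 after 2 GH, against 14.67 and 15.22 without GH (-1.42 ± 0.30, 37.5%, adjusted p = 0.00752). Both arrays moved the same way for each. For Dhrs7l1 the ratio without replicate 2 was -0.73 and not called (adjusted p = 0.192).

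Hsd11b1 read -0.79 and 0.06 on the single arrays after 2 GH, and the fitted -0.36 ± 0.09 was called (adjusted p = 0.0131) but not without a dye term (adjusted p = 0.583) or with either array left out (0.145 or 0.127). Its second probe gave -0.43 ± 0.15 (adjusted p = 0.0592). Hsd3b5 (-0.60 ± 0.20, adjusted p = 0.0551) and Hsd3b2 (-0.51 ± 0.19, adjusted p = 0.0755) were below 0 on both arrays, and Hsd17b2 (0.30 ± 0.25, adjusted p = 0.453) was not called. In hypox males without GH, Hsd17b2 read 16.24 to 16.48 on the 4 arrays numbered 1 and 15.25 to 15.50 on the 4 numbered 2, a gap wider than either of its fitted GH ratios. With median centring none of the 3 calls after 2 GH was kept (adjusted p of 0.23 to 0.469), and Hsd11b1 moved to -0.95.

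The animals killed after 2 injections differed from those killed after 1 in the time since the first injection as well as in dose, and both comparisons share hypox male RNA. No time from the second injection to the kill is at hand, so it may differ from the 30, 60 or 90 min after 1 injection. Each GH arm was 1 pool, so the test compares 2 pools and leaves out the spread between GH-treated animals. Set against 1 injection, 2 injections left Dhrs7l1 5.21-fold higher (2.38 ± 0.42, adjusted p = 0.0119), where 10.4% of 26208 probes were called in all, 5.56% higher and 4.82% lower. This call was lost without replicate 1 (2.795, adjusted p = 0.0511) or replicate 2 (1.97, adjusted p = 0.105) of the 1-injection arrays and without replicate 1 of the 2-injection arrays (1.70, adjusted p = 0.083), and was kept without replicate 2 of the 2-injection arrays (3.07, adjusted p = 0.0125). It was lost too with median centring (1.97, adjusted p = 0.999) and without a dye term (adjusted p = 0.052). Srd5a1 was lower after 2 GH than after 1 by -0.94 ± 0.27, not called (adjusted p = 0.0665), while its second probe was called (-0.81 ± 0.16, adjusted p = 0.0163), a call lost with any of the 4 GH arrays left out (adjusted p of 0.057 to 0.13). In limma fits of the deposited processed signals and of the series' values, the brighter Srd5a1 probe was called (-0.99, adjusted p = 0.0333, and -0.945, adjusted p = 0.0359). There the second probe was not (adjusted p = 0.0555 and 0.0668). Hsd3b5 (0.59 ± 0.29), Hsd3b2 (0.41 ± 0.26), Hsd17b2 (0.35 ± 0.36) and Hsd11b1 (0.11 ± 0.12) were not called.

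Probes of the 3-beta family may read more than 1 gene. The probe taken for Hsd3b2 lists accessions of both Hsd3b2 and Hsd3b1, and another probe, which the files name as a predicted Hsd3b1, also lists that of Hsd3b2. This other probe gave 4.90 ± 0.19 between untreated males and females and 4.07 ± 0.19 between hypox and untreated females, so Hsd3b2 and Hsd3b1 cannot be told apart here. A further probe, named in the files by an accession alone, lists the Hsd3b2 accession too, and it was called in none of the 6 comparisons (0.12 ± 0.14 between untreated males and females, adjusted p = 0.643). The adrenal and gonadal marker list holds Hsd3b1, read by the predicted Hsd3b1 probe above. The summed level of the list, which takes in that 3-beta signal, lay between 13.82 and 13.96 in untreated males, against 10.71 to 10.999 in untreated females. Its member Cyp17a1, the steroid hydroxylase, was higher in untreated males than in untreated females (0.96), in hypox males than in untreated males (1.36) and in hypox females than in untreated females (3.04), and lower after 2 GH than without GH (-0.85). Star, which carries cholesterol into mitochondria, was higher in hypox than in untreated females (0.21) and was not called between untreated males and untreated females (0.07). The part of such cells in the results was not tested.

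By the smallest root mean square difference of the 6 fitted ratios, among 10409 genes tested in all 6 comparisons, each gene had its nearest neighbours. Hsd3b5 lay nearest to the probe named Hsd3b1 (0.46), which may also read Hsd3b2, then the steroid hydroxylase Cyp2a2 (0.67) and the estrogen sulfotransferase Sult1e1 (0.80). Dhrs7l1 lay nearest to the male-specific steroid hydroxylase Cyp2c11 (0.80), then Sult1e1 (1.10) and Rdh16 (1.15). Hsd3b2 had Nox4 (0.49), Car3 (0.50) and Ust5r (0.53), and Hsd11b1 had Ust5r (0.31), Spink1l (0.35) and the cytochrome P450 Cyp3a18 (0.50). Hsd17b2 was nearest to the histidine decarboxylase Hdc (0.21), Ndrg1 (0.31) and Slc44a4 (0.38). Srd5a1 was nearest to the acyl-CoA thioesterase Acot5 (0.49), the fatty acid elongase Elovl6 (0.81) and the cytochrome P450 Cyp2c7 (0.83). All 6 points of each pattern share RNAs with others, so these differences are a description.

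Other enzymes of steroid metabolism were read from a list of 37 genes, of which 34 had a probe and 31 were tested. In untreated males over untreated females 8 were higher and 2 lower, against 15.5% of all probes called, led by the probe named Hsd3b1 (4.90), which may also read Hsd3b2, the aldo-keto reductases Akr1c3 (3.47) and Akr1c12 (1.08), and Hsd11b2 (-1.18), which inactivates corticosterone. Their median log2 ratio was 0.06, against -0.01 over all tested probes. In hypox females over untreated females 15 were higher and 8 lower, against 36.3% of all probes called, with the Hsd3b1 probe at 4.07, Akr1c3 at 3.41, Hsd11b2 at -2.87 and Akr1c2 at -2.76 (median 0.12, against 0.00 over all probes). In hypox males over untreated males 8 were higher and 10 lower, against 37.5% of all probes called, led by Akr1c2 (-2.97), Akr1c1 (-2.09), Hsd17b6 (-1.99) and Akr1c14 (-1.23), with a median of 0.03, against 0.01 over all probes. Between hypox males and hypox females, the Hsd3b1 probe (1.68) and Akr1c3 (0.70) were higher in males and 0 of the list lower, against 0.949% of all probes called.

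After 1 GH, 4 of the 31 enzymes were higher and 7 lower than in hypox males without GH, against 14.3% of all probes called, led by Akr1c2 (2.41), Akr1c1 (2.20), Akr1c3 (-1.83) and the Hsd3b1 probe (-1.004). After 2 GH, 4 were higher and 12 lower, against 30.8% of all probes called, led by Akr1c2 (2.67), Akr1c1 (1.67), Dhrs3 (-1.53) and Akr1c3 (-1.48). The medians were -0.16 and -0.15 after 1 and 2 injections, against 0.00 and -0.01 over all probes. The male change on hypophysectomy was above the female change for 2 enzymes and below it for 6 (median -0.17, against 0.01 over all probes), where 13.5% of all probes were called. H6pd, which supplies the cofactor of Hsd11b1 and was picked after its values were seen, was called in none of the 6 comparisons.

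**Figure D4:**
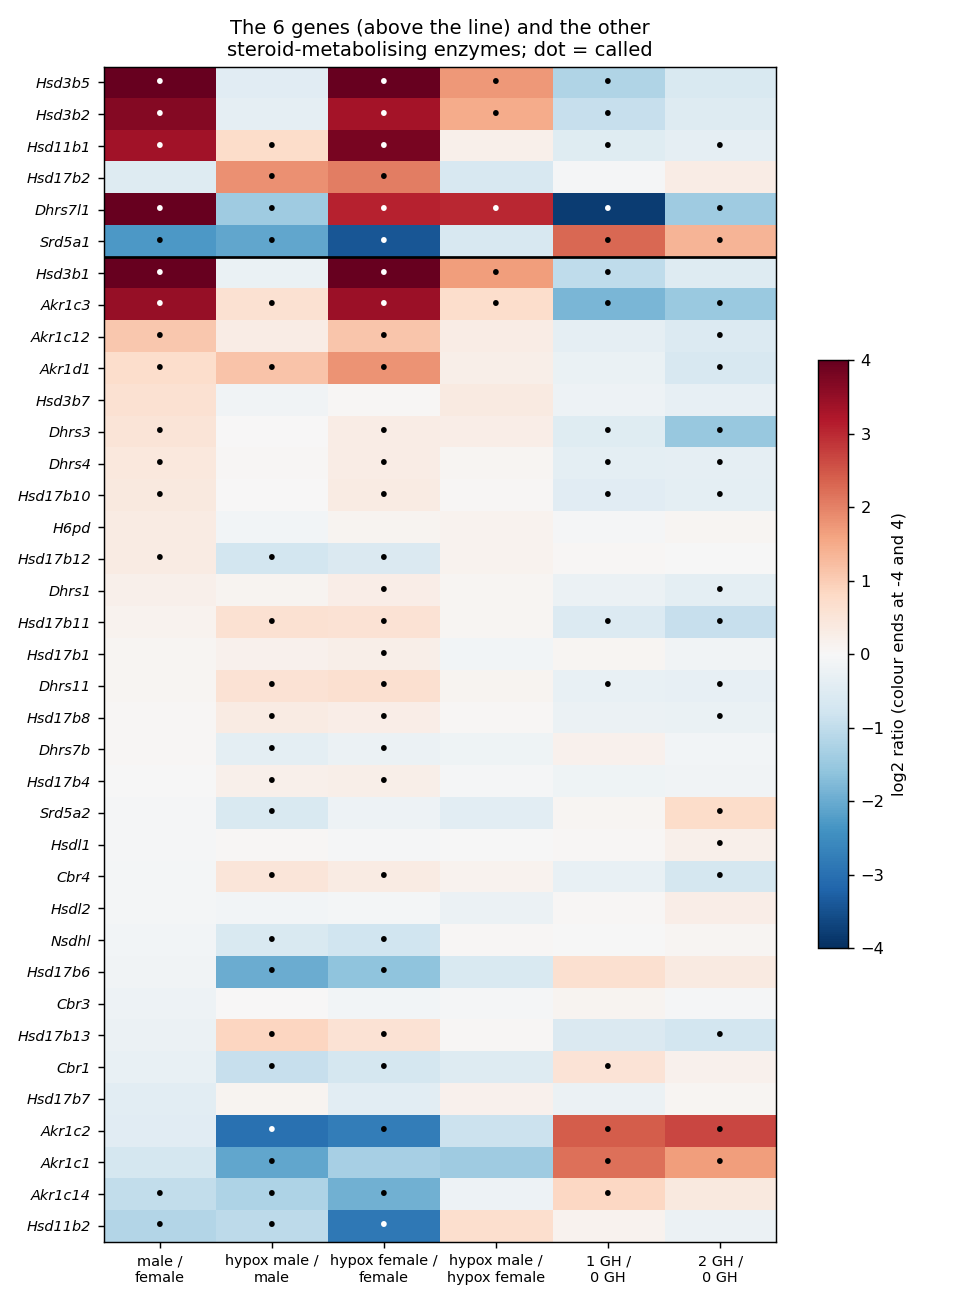
Fitted log2 ratio (colour, red above 0 and blue below 0, ending at -4 and 4) of the 6 genes, above the line, and of 31 other enzymes of steroid metabolism, below it, in the 6 comparisons (columns); a dot marks a called gene. Akr1c3 has red and blue fields in the places where Hsd3b5 does except in hypox over untreated males (0.62), and Akr1c2 and Akr1c1 are blue on hypophysectomy, Akr1c1 without a call in females (-1.32), and red after GH.

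Receptors for the steroids these enzymes handle were listed as well, 7 genes, of which 4 to 7 were tested in a comparison. The glucocorticoid receptor Nr3c1 was higher in untreated males than in untreated females (0.31) and in hypox males after 1 GH (0.49) and 2 GH (0.27) than without GH. The estrogen receptor Esr1 was lower in hypox than in untreated females (-0.52), and the mineralocorticoid receptor Nr3c2 was lower after 2 GH than without GH (-0.56).

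Of 13 glucocorticoid responsive genes listed, 12 were tested in hypox females over untreated females, where 6 were higher and 1 lower, led by the metallothionein Mt1 (2.40), the gluconeogenic enzyme Pck1 (1.44), the tryptophan dioxygenase Tdo2 (1.09) and the tyrosine aminotransferase Tat (0.63). In hypox males over untreated males 4 were higher and 3 lower, led by Mt1 (2.56), Tat (0.97), the kinase Sgk1 (-0.84) and Klf9 (-0.61). In untreated males over untreated females 4 of 11 were higher and 1 lower, led by Pck1 (1.67), Mt1 (-1.20), Sgk1 (1.03) and Fkbp5 (0.62). After 1 GH 1 was higher and 2 lower than without GH (Klf9 at 0.82, Tat at -0.75 and Tdo2 at -0.62), and after 2 GH 3 were higher and 3 lower, led by the cell cycle inhibitor Cdkn1a (1.69), Dusp1 (1.40), Tat (-0.94) and Klf9 (0.87). The shares called over all probes were 36.3%, 37.5%, 15.5%, 14.3% and 30.8% in these 5 comparisons, and the list's median ratios 0.16, 0.06, 0.16, -0.10 and 0.10, in the same order, against -0.01 to 0.01 over all probes. Between hypox males and hypox females, where 0.949% of all probes were called, limma called 0 of 12. Cdkn1a alone was past an unadjusted threshold of 0.05 there.

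Markers of other cells moved with some comparisons. Erythroid markers, 4 of 5 listed with a probe, were all lower in hypox males than in untreated males (median -1.45) and in hypox females than in untreated females (-0.998). Their summed log2 level lay between 10.16 and 11.17 in hypox males, against 13.12 to 13.91 in untreated males. The haemoglobin gene Hbb was lower in hypox males than in hypox females (-2.30) and higher after 1 GH (2.45) and 2 GH (1.54) than without GH. Alas2, also on the list, was called in the same directions (-0.9996, 1.03 and 0.47). Ahsp was called in none of these comparisons, and Slc4a1 only after 2 GH, where it was lower (-0.64). In hypox over untreated males, higher calls were made for 4 of 6 endothelial, 3 of 5 bile duct and 3 of 5 lymphocyte markers tested, and in hypox over untreated females for 4 of 5, 3 of 5 and 4 of 5, where 37.5% and 36.3% of all probes were called. The bile duct markers Epcam (1.82 in males and 1.75 in females) and Krt19 (1.89 and 1.69) were among them.

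Macrophage markers were higher for 4 of 5 after 1 GH, where 14.3% of all probes were called. They were lower for 3 of 5 in untreated males than in untreated females, where 15.5% of all probes were called. Their summed level lay between 16.10 and 16.12 after 1 GH, against 15.68 to 16.04 in hypox males without GH. Of 6 stellate cell markers, 2 were higher and 2 lower in hypox than in untreated males, where 37.5% of all probes were called. Of the pancreas and fat markers, the pancreatic carboxypeptidase Cpa1 was lower in untreated males than in untreated females (-3.93) and in hypox than in untreated females (-4.15), and the elastase Cela1 was higher in both (1.74 and 1.18). The part of these cells in the results on the 6 genes was not tested.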

How the data were processed

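Spot intensity and local background in each colour were read by the authors with Agilent Feature Extraction, per the file headers. The same files, per the file headers, hold background-subtracted, dye-normalized processed signals, and a log10 ratio (red over green) made from those. The authors' deposited value table of the series holds, by its match to the processed signals, a log2 ratio of channel 2 to channel 1. Intensities were background-corrected (normexp, offset 50) and loess-normalized within arrays in limma 3.58.1 (R 4.3.3, data.table version 1.17.8), and outlier spots were left out. The labelled dyes set each ratio's direction, channel 2 over channel 1. Testing required 1 or both RNAs of a comparison to be well above background on its 2 arrays. A linear model over all 12 arrays had 6 comparison coefficients and a dye term (5 residual degrees of freedom). It assumes 1 spread for all comparisons, and that of the GH arrays, with 1 GH pool on both, may be smaller. The model also treats the 12 arrays as independent, although arrays of different comparisons share RNAs. The fit was tested on simulated data with errors drawn independently for each array, so that test does not cover errors shared between arrays.

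For 1 array after 1 injection the channel label omits the hormone, and its title was used. Levels per channel came after a further quantile step on the mean of both colours. Where a gene had several probes the brightest stands for it. The 6 genes were all named, with 3 neighbours each and up to 4 called genes of each steroid list per comparison, by size of ratio. These genes and the gene lists were chosen with earlier results of these data known. Genes were named through RefSeq accessions, symbols and synonyms, and 20977 of the 41012 probes were not named. Alternatives are given in the closing section. The results of 1 listed receptor gene are not reported here.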

Additional observations from a re-analysis of the deposited data

Results flagged for a closer look

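In hypox females, Hsd17b2 had a log2 level of 16.83 on array 1 of the comparison with untreated females, while the other 3 channels lay between 16.40 and 16.44. It was the only channel set far apart among 32 groups of channels tested, where chance sets about 1 group in 20 apart.

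The change on hypophysectomy differed between males and females, by a test of the difference itself with limma, for 7 of the 8 probes, where 13.5% of 23859 probes were called in all. The male change minus the female change was -4.60 for Hsd3b5 (adjusted p = 5.71e-06), -2.95 for Hsd3b2 (4.11e-05), -3.11 for Hsd11b1 (6.45e-07), -3.19 for the second probe of Hsd11b1 (6.79e-06) and -3.097 for Dhrs7l1 (0.00039). It was 1.504 for Srd5a1 (adjusted p = 0.00165) and 1.31 for its second probe (0.000192). The 2 routes around the loop gave -4.51 and -1.68 for Dhrs7l1, -5.43 and -3.76 for Hsd3b5, and -3.70 and -2.19 for Hsd3b2. With median centring in place of loess, limma no longer called Dhrs7l1 (adjusted p = 0.115), Srd5a1 (0.486) or its second probe (0.232).

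By limma's test of the difference, the change after 2 injections of GH was 2.38 above that after 1 for Dhrs7l1 (adjusted p = 0.0119), and for the second probe of Srd5a1 the difference was -0.81 (adjusted p = 0.0163). Each arm is 1 pool, so these p-values compare 2 pools and not animals, and leaving out 1 array ended the call of Dhrs7l1 in 3 of 4 cases and that of the Srd5a1 probe in 4 of 4.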

How the results depend on the processing

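Over the 8 probes and 9 contrasts, 738 of 832 alternative values kept their direction and their side of the threshold, 68 lost a call, 15 gained one and 11 changed sign, all of values that were not called. Under median centring in place of loess, sign changed for Hsd11b1 between hypox males and hypox females (-0.0087) and after 2 against 1 GH (-0.36), and for Hsd17b2 after 2 GH (-0.25) and after 2 against 1 GH (-0.085). With the series' table of values the second Hsd11b1 probe gave 0.03 after 2 against 1 GH, and -0.115 to 0.096 with an array left out. With an array left out Hsd17b2 gave -0.403 to 0.066 for the difference between the male and the female change, -0.369 to 0.28 after 1 GH and -0.035 to 0.641 after 2 GH. The cause was not tested.

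Counts of probes called fell under median centring to 261 in untreated males over females, 345 in hypox over untreated males, 370 in hypox over untreated females, 7 between hypox males and females, 0 after 1 GH, 75 after 2 GH, 118 for the male minus the female change on hypophysectomy (the sex dependence), 376 for hypox females over untreated males and 0 for 2 against 1 GH. Where limma called 0, 997 probes after 1 GH and 461 for 2 against 1 GH had an unadjusted p under 0.05, and no other tool was run. Processed signals gave 92 between hypox males and females, 1932 after 1 GH, 2084 for the sex dependence and 1453 for 2 against 1 GH, and the series' own values gave 113 between hypox males and females. With no dye term there were 2600 in males over females, 83 between hypox males and females, 2106 after 1 GH, 1890 for the sex dependence and 1228 for 2 against 1 GH. With only the arrays of the comparison there were 2686 in hypox over untreated males, 6 between hypox males and females, 810 after 1 GH, 3650 after 2 GH, 2022 for the sex dependence and 10689 for 2 against 1 GH, the last from 1 residual degree of freedom.

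With 1 array left out, counts ranged from 1292 to 1448 in untreated males over females, 5648 to 8953 in hypox over untreated males, 3582 to 4157 in hypox over untreated females, 22 to 46 between hypox males and females, 558 to 629 after 1 GH, 4183 to 4870 after 2 GH, 1801 to 3682 for the sex dependence, 7448 to 11297 for hypox females over untreated males and 515 to 995 for 2 against 1 GH.

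Deviations of arrays of the same number correlated above 0.1 in 6 of 15 pairs of comparisons (-0.68 to 0.86), so the rule for taking the numbers as pairs was not met. That does not show separate pools, since a pool shared on opposite sides of the ratio gives a negative correlation, which the rule does not count. The correlation was 0.41 to 0.86 in the 3 pairs that share an RNA on the same side of the ratio and -0.68 to 0.01 in the 6 that share it on opposite sides. A replicate block gave 143 calls between hypox males and females, against 247 without it, and kept the other 8 counts within 1.5 times. Under it 4 more member values were called: Hsd3b5 in hypox over untreated males (-0.46, adjusted p = 0.00379), after 2 GH (-0.60, adjusted p = 0.00109) and for 2 against 1 GH (0.59, adjusted p = 0.0196), and Hsd3b2 after 2 GH (-0.51, adjusted p = 0.0284). Slide as a random block had a correlation of 0.01 and kept all 9 counts within 1.5 times.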
